A study of Rattus norvegicus with 6 samples.

Results

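The microRNAs (miRNAs) rno-miR-199a-3p, rno-miR-199a-5p and rno-miR-214-3p, given below without the prefix for rat, were followed in the small RNA of rat liver, as 3 of the 681 distinct 18-base starts of mature rat miRNAs listed by RefSeq. A read sequence, called a tag, was assigned to a miRNA when its first 18 bases equalled those of the mature sequence. The libraries came from Wistar rats labelled as 4 months old, an age that differs from the one in the study's methods. The NAFLD group (nonalcoholic fatty liver disease) comprised 3 livers from male rats that were fasted for 48 h and then fed an 80% starch diet for 7 days, chosen among those with higher hepatic triglycerides. The normal group comprised 3 livers, chosen at random, from male rats on a standard diet with 35% starch. Each library was made from whole liver of 1 rat, so hepatocytes and all other liver cells were sequenced together, and no measure of fibrosis was used here.

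Both arms of miR-199a are cut from the same hairpin precursor, and miR-214 is cut from a neighbouring hairpin. In mammals these hairpins lie in a long noncoding transcript, Dnm3os, that runs antisense to the dynamin gene Dnm3, and a further miR-199a hairpin lies at Dnm2. The miRNAs are known from mesenchymal cells. In liver they are known from hepatic stellate cells, the vitamin A-storing cells that make scar matrix when activated. A mature miRNA finds its targets mainly through its seed, bases 2 to 8, so the start of a read decides which messages it can recognise.

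The mature sequences that define the members are shown first, with the seed in capitals, as given by RefSeq for the rat genome build GRCr8:
miR-199a-5p: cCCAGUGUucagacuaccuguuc
miR-199a-3p: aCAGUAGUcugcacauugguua
miR-214-3p: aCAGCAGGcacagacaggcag
No 2 of the 3 seeds were the same, and no other mature rat miRNA in the table carried any of them. Over the first 18 bases, the nearest other mature miRNA differed from each member at 7 positions, so a tag of a member could not be taken for another listed miRNA. Mir199a2 holds miR-199a-5p at chr13:77116255-77116277 and miR-199a-3p at chr13:77116294-77116315, and Mir214 holds miR-214-3p at chr13:77121713-77121733, all on the plus strand. These positions fall within the span of Dnm3 at chr13:76892381-77371346 on the minus strand, and 5329 bases separate the end of miR-199a-3p from the start of the Mir214 hairpin. Reads of miR-199a from its further hairpin cannot be told apart from those of Mir199a2.

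The Mir214 hairpin, chr13:77121645-77121752, is shown because reads came almost entirely from its later arm. The capitals mark the mature miR-214-5p and miR-214-3p of the annotation:
Mir214 hairpin: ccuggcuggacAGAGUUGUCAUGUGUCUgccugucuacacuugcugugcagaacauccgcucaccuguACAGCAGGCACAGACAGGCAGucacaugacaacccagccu
The annotated miR-214-5p, the opposite arm, had 0 reads in all 6 libraries, and a count of 0 allows up to 3 reads, or 0.253 to 0.259 TPM, in a library. In the first part of the hairpin, 4 reads in all began, at bases 28 and 29, past the annotated start at base 12. They were not counted as miR-214-5p, so the 0 holds for the annotated sequence and not for the whole opposite arm.

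The libraries held 11601058 to 11880695 clean reads. Reads assigned to mature miRNAs made up 75.7% to 79.2% of a NAFLD library and 85.7% to 91.3% of a normal one. Libraries also differed across the groups in the share of reads with a base substitution. At read position 4 this share, as a median over 50 abundant tags, was 0.899% to 1.03% in normal replicate 2 and in NAFLD replicates 2 and 3, called here the high-rate libraries. It was 0.0431% to 0.0460% in the low-rate libraries, which are NAFLD replicate 1, normal replicate 1 and normal replicate 3. Reads with a substitution in their first 18 bases are lost to the count by the first 18 bases, so each level is also given with 1 substitution allowed.

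miR-199a-3p was higher in every NAFLD library than in every normal library, by 1.43 times in the group means, but the difference did not pass the test across all miRNAs. miR-199a-5p and miR-214-3p had higher means in NAFLD, with overlapping groups. Levels are in TPM, the reads of a miRNA per 1000000 clean reads of the library.

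rno-miR-199a-3p, the abundant member, had 438.8, 399.7 and 429.6 TPM in NAFLD replicates 1, 2 and 3 and 293.7, 210.4 and 384.3 TPM in normal replicates 1, 2 and 3. The NAFLD libraries lay close together and above the normal ones, of which replicate 3 came nearest to them. The group means were 422.7 ± 20.4 TPM and 296.1 ± 87.0 TPM (SD, n = 3 each). The exact permutation test, two-sided, gave p = 0.1, and 3 values against 3 cannot give a smaller one. edgeR's quasi-likelihood test over 168 miRNAs gave a log2 fold change of 0.51 (standard error 0.38, 95% interval -0.31 to 1.34), with an unadjusted p of 0.202 and a Benjamini-Hochberg adjusted p of 0.986. Of the 168 miRNAs tested, 2.98% lay in all NAFLD libraries above all normal ones, and 0 of the 3 members were called at an adjusted p of 0.05, against 0.595% of all miRNAs. An unadjusted p under 0.05 was reached by 1.79% of the miRNAs and by 0 of the members. The 1 miRNA called was miR-122-5p, the main miRNA of hepatocytes, with a log2 fold change of -0.35 and an adjusted p from edgeR of 0.000518. Its call ended, with the sign kept, per miRNA read (log2 fold change -0.16, adjusted p from edgeR 0.150), with TMM factors (-0.43, adjusted p from edgeR 0.933) and in DESeq2 (-0.41, adjusted p 0.980).

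rno-miR-214-3p, the arm cut from the neighbouring hairpin, was rare, with 66, 38 and 53 reads in NAFLD replicates 1, 2 and 3 and 51, 23 and 48 reads in normal replicates 1, 2 and 3. In TPM these were 5.69, 3.23 and 4.49 against 4.30, 1.94 and 4.04. Normal replicate 2 was the lowest and NAFLD replicate 1 the highest, and the groups overlapped. The 95% Wilson interval of 1 library, from 1.29 to 2.91 TPM for normal replicate 2 and from 4.47 to 7.24 TPM for NAFLD replicate 1, covers counting error only. edgeR gave a log2 fold change of 0.38 (standard error 0.43, 95% interval -0.54 to 1.31) with an adjusted p of 0.986.

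rno-miR-199a-5p, the arm of miR-199a with fewer reads, had 20, 13 and 10 reads in NAFLD replicates 1, 2 and 3 and 12, 5 and 16 reads in normal replicates 1, 2 and 3. The levels were 1.72, 1.11 and 0.846 TPM against 1.01, 0.421 and 1.35 TPM, so the groups overlapped. Its log2 fold change was 0.40 (standard error 0.53, 95% interval -0.75 to 1.54), with an adjusted p from edgeR of 0.986. It rests on 5 to 20 reads per library.

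The level of a miRNA can move with the number of cells that make it or with its RNA in each cell, and whole liver does not tell these apart. Which liver cells the reads of the members came from was not tested. By level, the order was miR-199a-3p, miR-214-3p and miR-199a-5p in each of the 6 libraries. miR-199a-3p ranked 20 to 28 among all mature miRNAs of a library, miR-214-3p 108 to 120, and miR-199a-5p 145 to 173. Across the 6 libraries, Pearson's r of log2(TPM + 1) was 0.80 between miR-199a-3p and miR-214-3p, 0.78 between miR-199a-3p and miR-199a-5p, and 0.84 between miR-214-3p and miR-199a-5p. With 1 substitution allowed, these values were 0.90, 0.67 and 0.49. Within a library the members share its depth and substitution rate, and that rate differed between the low-rate and high-rate libraries. The values of r describe 6 libraries, and no p is given.

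**Figure D1:**
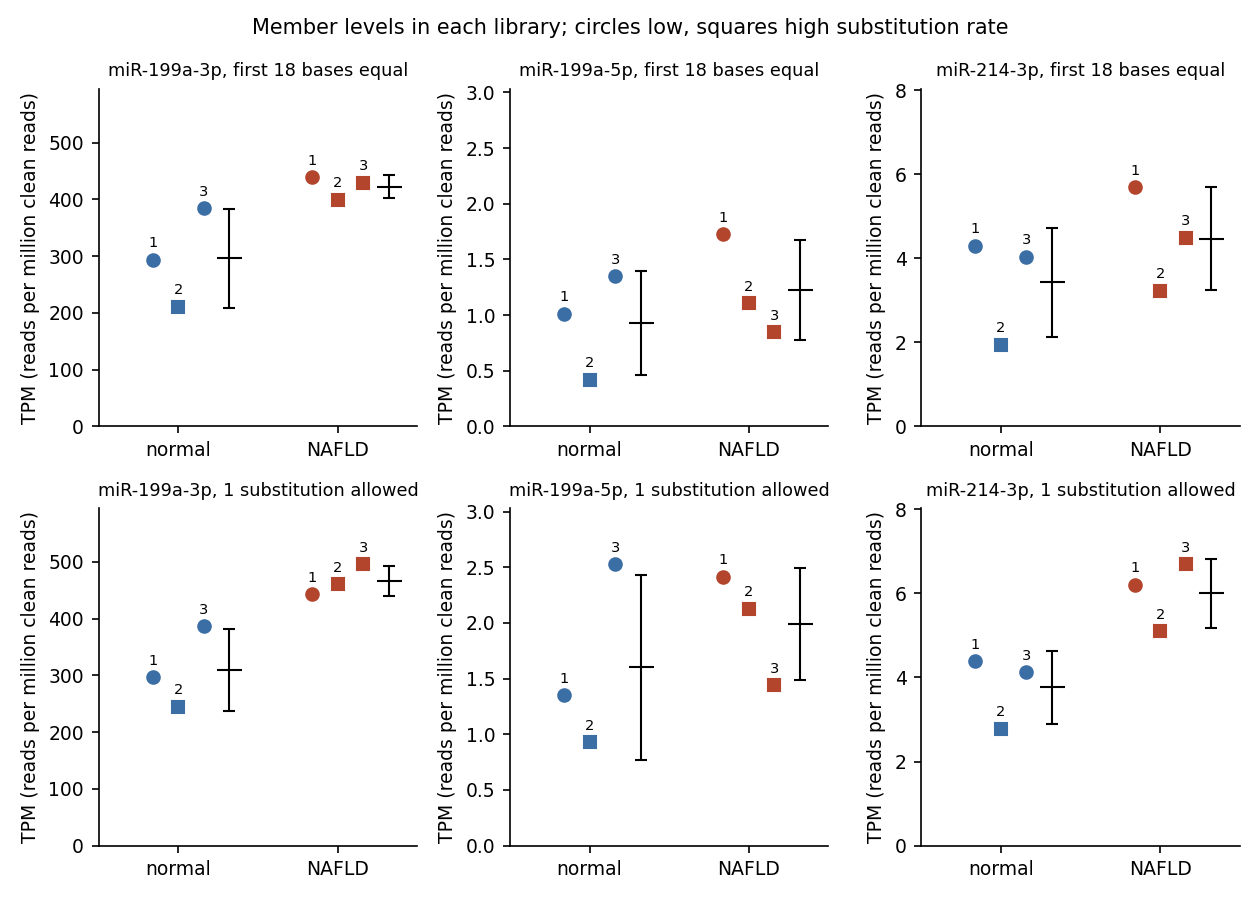
Level of each member in TPM (y axis) in the normal and NAFLD libraries, by equal first 18 bases (upper row) and with 1 substitution allowed (lower row); points are libraries labelled with their replicate number, circles low-rate and squares high-rate libraries, and bars the mean ± SD of 3 libraries. miR-199a-3p lies higher in all NAFLD libraries in both rows, and miR-214-3p does so only with 1 substitution allowed, where it spans 5.10 to 6.69 TPM in NAFLD and 2.78 to 4.39 TPM in normal.

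Substitutions removed a sizeable part of the members' reads in the high-rate libraries. For miR-199a-3p, reads with 1 substitution were 13.2%, 13.3% and 14.1% of the reads in NAFLD replicate 2, NAFLD replicate 3 and normal replicate 2, against 0.653% to 1.01% in the low-rate libraries. For miR-214-3p they were 36.7%, 32.9% and 30.3% in the same high-rate libraries, against 1.92% to 8.33%. For miR-199a-5p they were 41.2% to 54.5% and 25% to 46.7%, high in both sets. The share of miR-199a-5p includes reads with C10T, described below, whose origin was not tested. Over the 168 miRNAs tested the median share was 29.1% in the high-rate and 1.28% in the low-rate libraries, and by the share in the high-rate libraries miR-199a-5p ranked 9, miR-214-3p 56 and miR-199a-3p 136 of the 168.

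The most frequent substitutions in the 3p members were of A by C, at a few positions counted from 1 at the 5′ end of the miRNA. In miR-199a-3p, 351 reads of NAFLD replicate 2, 390 of NAFLD replicate 3 and 200 of normal replicate 2 held A15C, and 0 reads of the other libraries did. A1C was found in 211, 240 and 126 reads of those libraries, and again in 0 of the others. In miR-214-3p, 9, 15 and 6 reads of the high-rate libraries held A16C, and 0 of the others did. C10T in miR-199a-5p stood apart from this pattern. NAFLD replicates 1, 2 and 3 had 8, 9 and 2 such reads and normal replicates 1, 2 and 3 had 4, 2 and 13, with no division by substitution rate. These 38 reads compare with 76 of miR-199a-5p itself, and whether they come from a related miRNA was not tested.

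With 1 substitution allowed, miR-199a-3p had 443.2, 460.2 and 495.5 TPM in the NAFLD libraries and 296.4, 245.0 and 386.8 TPM in the normal libraries. The ratio of means was then 1.51. miR-214-3p had 6.21, 5.10 and 6.69 TPM in the NAFLD libraries and 4.39, 2.78 and 4.12 TPM in the normal libraries, a ratio of 1.59. Both miRNAs were then higher in all NAFLD libraries (exact permutation p = 0.1 for each), as were 10.3% of the 174 miRNAs tested in this way. edgeR gave miR-199a-3p a log2 fold change of 0.59 (standard error 0.25, unadjusted p = 0.0318) and miR-214-3p one of 0.67 (standard error 0.31, unadjusted p = 0.0471), and the adjusted p was 0.593 for both, where 0.575% of the miRNAs were called. At an unadjusted p under 0.05, 5.75% of the miRNAs were higher. The median miRNA itself moved by 0.15 on the log2 scale in this fit and by 0.02 in the fit by equal first 18 bases. Relative to that median, the log2 fold changes were 0.44 for miR-199a-3p and 0.52 for miR-214-3p. miR-199a-5p, with 1.99 ± 0.501 TPM and 1.60 ± 0.828 TPM (SD, n = 3 each), still overlapped between the groups. Of the 51 reads added to it, 38 carried C10T, whose origin was not tested, so this level may hold reads of another miRNA.

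Within the low-rate libraries, miR-199a-3p was 1.29 times higher in NAFLD replicate 1 than in the mean of normal replicates 1 and 3, and within the high-rate libraries NAFLD replicates 2 and 3 were 1.97 times above normal replicate 2. For miR-214-3p these ratios were 1.36 and 1.99, and for miR-199a-5p 1.46 and 2.32. All 3 members were thus higher in NAFLD on each side of the division, as were 53.6% of the 168 miRNAs tested, and no test was made with 1 library against 2. With the division as a covariate, edgeR gave log2 fold changes of 0.67, 0.69 and 0.79 for miR-199a-3p, miR-214-3p and miR-199a-5p, with adjusted p of 0.142, 0.377 and 0.503. At an unadjusted p under 0.05, where miR-199a-3p stood with 0.00714, 12.5% of all miRNAs were higher in this fit. Its median log2 fold change over all miRNAs was 0.24. With 1 substitution allowed as well, the adjusted p from edgeR was 0.0813 for miR-199a-3p, 0.301 for miR-214-3p and 0.604 for miR-199a-5p, so 0 of the members were called where 2.3% of the 174 miRNAs were. In that fit miR-199a-3p and miR-214-3p had an unadjusted p under 0.05, and 14.4% of the 174 miRNAs had one with a higher level in NAFLD.

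The arm ratio of miR-199a asks whether the balance of reads assigned to its 3p and 5p arms differed between the groups. It does not depend on how libraries are scaled, but it can depend on reads lost to substitutions. The reads were not assigned to single hairpins, and miR-199b-5p had no entry in the reference, so reads of a miR-199b hairpin were not counted apart. Reads of the 3p arm outnumbered those of the 5p arm in all libraries, by 254.5, 361.5 and 507.5 times in NAFLD replicates 1, 2 and 3 and by 290.1, 499.6 and 285.4 times in normal replicates 1, 2 and 3. The highest ratios were in NAFLD replicate 3 and normal replicate 2, both high-rate libraries. The 3p arm made up 99.61% to 99.80% of the reads of both arms, with the 95% Wilson intervals of single libraries between 99.40% and 99.91%. On the log2 scale the ratio was 8.49 ± 0.498 in NAFLD and 8.43 ± 0.460 in normal (SD, n = 3 each). The difference of 0.058 was smaller than the spread (exact permutation p = 0.9, and 0.9 when adjusted over the 2 ratios compared). With 1 substitution allowed, which adds the C10T reads to the 5p arm, the ratio was 7.90 ± 0.470 and 7.69 ± 0.400. The difference was then 0.21, with overlap (exact permutation p = 0.7).

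For context, 33 miRNAs had at least 5 reads of each arm in every library, a minimum that miR-199a-5p just reaches. By the size of the imbalance in either direction miR-199a ranked 6 of the 33, and by the excess of 3p reads it ranked 2. Its difference between the groups ranked 31 by size, and 6.06% of the 33 had arm ratios that did not overlap between the groups. Small RNA cloning does not recover all sequences equally well, so the ratio is one of reads and not of molecules in the liver.

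The hairpins of Mir214 and Mir199a2 share the Dnm3os transcript in mammals, but miR-199a-5p reads could also come from the further miR-199a hairpin. miR-214-3p and miR-199a-5p stood in a ratio of 3.30, 2.92 and 5.30 in NAFLD replicates 1, 2 and 3 and of 4.25, 4.60 and 3.00 in normal replicates 1, 2 and 3. The log2 ratio was 1.89 ± 0.454 in NAFLD and 1.96 ± 0.328 in normal (SD, n = 3 each), with the groups overlapping (exact permutation p = 0.9). miR-199a-3p reads were 68.3 to 123.7 times those of miR-214-3p.

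**Figure D2:**
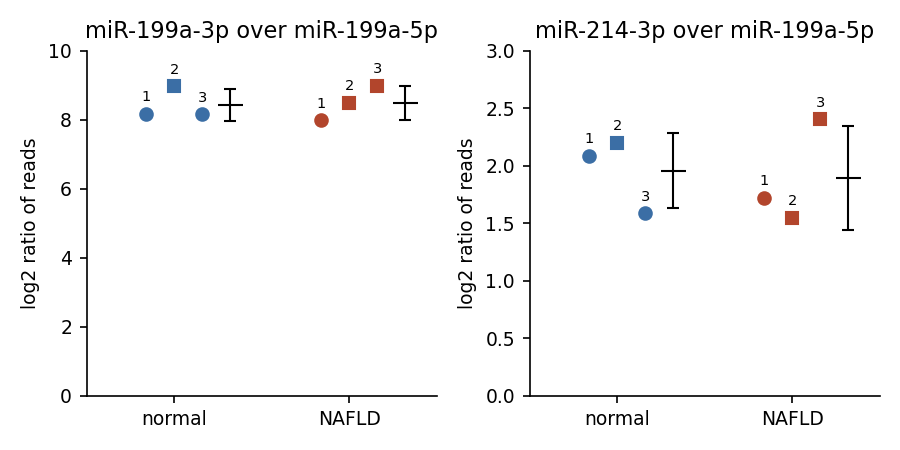
Log2 ratio of reads (y axis) of miR-199a-3p over miR-199a-5p (left) and of miR-214-3p over miR-199a-5p (right) in normal and NAFLD libraries; points are libraries labelled with their replicate number, circles low-rate and squares high-rate, and bars the mean ± SD of 3 libraries. Both ratios overlap between the groups, and the arm ratio spans 7.99 to 8.99 in NAFLD.

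The tags of miR-199a-3p are shown because most of its reads differed from the annotated sequence at the 3′ end. The capitals mark bases at the 3′ end that follow the longest match to the mature sequence:
without the last A: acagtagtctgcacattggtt
mature sequence: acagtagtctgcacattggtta
T in place of the last A: acagtagtctgcacattggttT
mature sequence and A: acagtagtctgcacattggttaA
mature sequence and T: acagtagtctgcacattggttaT
miR-199a-3p was read in 71 different tags with 25410 reads over the 6 libraries. The tag of 21 nt that lacks the last A held 43.7% of these reads, from 39.5% to 46.4% in single libraries. The annotated sequence of 22 nt held 35.6%, from 34.0% to 40.1%. The share equal to the mature sequence was 35.2% ± 1.04 in NAFLD and 36.7% ± 3.10 in normal (SD, n = 3 each), a difference within the spread (exact permutation p = 0.7, and 1 adjusted over the 3 members).

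Some tags of miR-199a-3p carried bases that the mature sequence does not have. The tag with T in place of the last A held 7.76% ± 0.517 of the reads in NAFLD and 6.92% ± 0.324 in normal (SD, n = 3 each). Of the 18 tags of the 3 members compared, only this 1 had groups that did not overlap (exact permutation p = 0.1, and 0.8 adjusted over the 18). A tail of T only was carried by 10.3% ± 0.452 of the reads in NAFLD and 9.49% ± 0.333 in normal, and a tail of A only by 6.17% ± 0.892 and 6.80% ± 0.405 (SD, n = 3 each), and each overlapped between the groups.

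The tags of miR-214-3p, shown for their tails, had no dominant form, and the capitals again mark what follows the longest match to the mature sequence:
mature sequence and T: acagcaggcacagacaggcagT
mature sequence and TA: acagcaggcacagacaggcagTA
mature sequence: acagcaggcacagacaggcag
mature sequence and TT: acagcaggcacagacaggcagTT
mature sequence and TAT: acagcaggcacagacaggcagTAT
The 279 reads of miR-214-3p fell into 49 tags, and 73.8% of them were the mature sequence with bases added, against 7.57% for miR-199a-3p. Only 10.4% equalled the mature sequence. The hairpin continues with U and then C, so a single added T is the next base of the precursor, whereas TA and TT hold a base that the precursor does not have at that place. Reads with a tail of A only were 6.54% ± 1.19 in NAFLD and 12.5% ± 2.44 in normal, and those with a tail of T only were 43.4% ± 3.40 and 34.4% ± 5.04 (SD, n = 3 each). Neither tail class overlapped between the groups (exact permutation p = 0.1 for each, and 0.6 adjusted over the 12 tail shares compared), and the A tails rest on 25 reads in all. miR-199a-5p, with 76 reads in 8 tags, ended before the annotated last base in 81.6% of its reads.

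**Figure D3:**
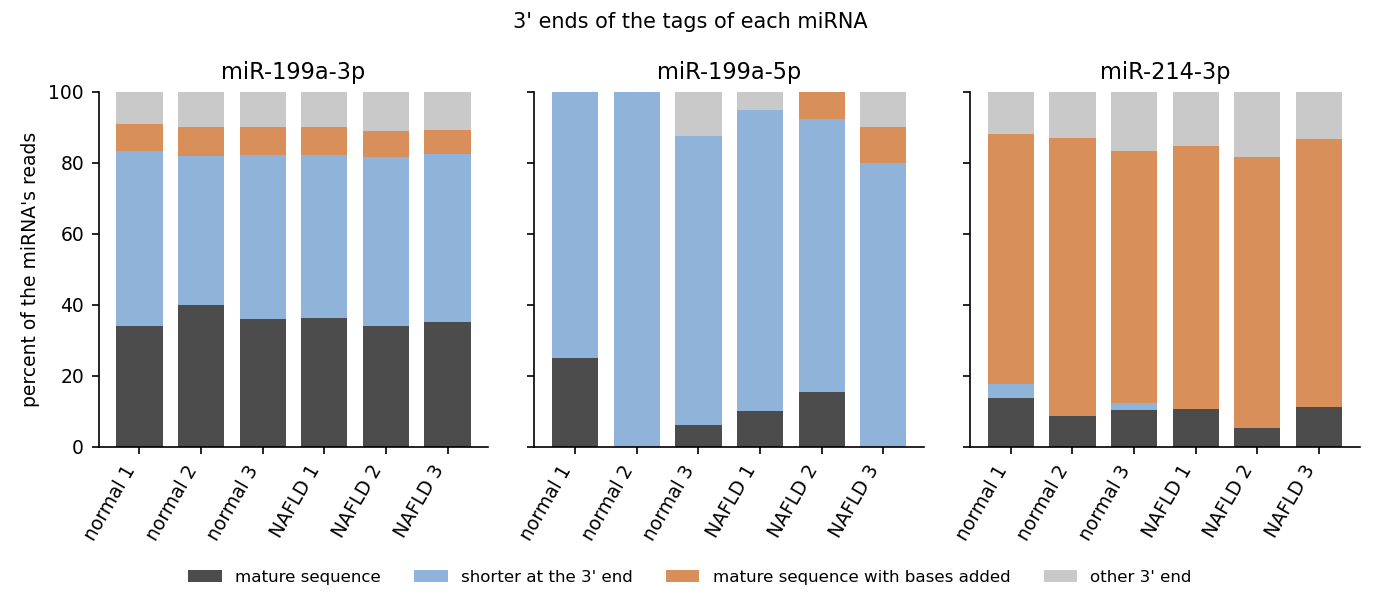
Percent of the reads of each member (y axis) that equal the mature sequence, end before it, carry bases added to it or end otherwise, in stacked bars for the 3 normal and 3 NAFLD libraries. miR-199a-3p is split mainly between the mature and the shorter form, whereas miR-214-3p mostly carries added bases, with no clear difference between the groups.

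The 5′ start sets the seed, and it was shifted in part of the reads of both 3p arms. The most frequent tags that start 1 base early are shown, with the extra base in capitals:
miR-199a-3p: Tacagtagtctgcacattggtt
miR-214-3p: Tacagcaggcacagacaggcagt
Among the reads of miR-199a-3p within 2 bases of the annotated start, 6.47% started 1 base early and 3.83% started 1 base late. The extra base was T in 99.5% of the early reads. The share with any shift was 9.69% ± 1.70 in NAFLD and 10.7% ± 2.01 in normal (SD, n = 3 each), with overlap (exact permutation p = 0.6). For miR-214-3p, 30.7% of the reads started 1 base early, all 124 with the T that the hairpin has before the mature sequence, and 0 of 404 reads started late, which allows a share of up to 0.743%. Its shifted share was 32.1% ± 4.16 in NAFLD and 29.4% ± 6.86 in normal (SD, n = 3 each), again with overlap (exact permutation p = 0.7). All 76 reads of miR-199a-5p started at the annotated base, and 0 shifted reads of 76 allow a share of up to 3.95%.

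By equal first 18 bases, 0 of the list of miRNAs known from mesenchymal cells passed the test. At the median the list did not stand above all miRNAs. This count leaves out reads with 1 substitution, a median share of 29.1% in the high-rate libraries but 13.2% to 14.1% for miR-199a-3p. NAFLD replicates 2 and 3 and normal replicate 2 are those libraries. The part of this loss in the list's fold changes was not tested. Of 13 listed miRNAs, members included, 12 were in the reference and 9 were tested, and of these 0 were called in either direction, 4 had a positive log2 fold change and 1, miR-199a-3p, had groups that did not overlap. Over all 168 miRNAs, 0.595% were called, 51.2% had a positive log2 fold change, and 2.98% lay higher and 1.19% lower in NAFLD without overlap. The median log2 fold change of the list was -0.00, beside 0.02 over all 168 miRNAs. The list's summed level was 800 to 1244 TPM in NAFLD and 507 to 1110 TPM in normal. miR-152-3p, found in stellate cells and other cells, had 459.8, 220.5 and 234.5 TPM in NAFLD replicates 1, 2 and 3 and 400.7, 125.8 and 390.8 TPM in normal replicates 1, 2 and 3. miR-143-3p, a smooth muscle miRNA, had 203.2, 121.5 and 128.0 TPM against 192.5, 117.4 and 189.7 TPM. Next by level was miR-195-5p, with 66.0, 24.2 and 30.4 TPM against 54.0, 21.4 and 73.4 TPM. All 3 were low in the high-rate libraries of either group. miR-145-5p, the partner of miR-143 and named after its values were seen, stood at 84.6 TPM in normal replicate 1 and at 6.89 to 21.8 TPM in the other libraries. Of the list, miR-214-5p as annotated was at 0, and miR-145-3p and miR-218a-5p stayed under 0.51 TPM in all libraries.

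Markers of other liver cells were measured beside the members. The hepatocyte list summed to 474798 to 482015 TPM in NAFLD and 583556 to 622401 TPM in normal, without overlap. miR-122-5p made up most of that sum. It was the 1 of the list's 6 tested miRNAs that was called, except in the fits named above where its call ended. The other tested miRNAs of the list overlapped between the groups. Their log2 fold changes ran from -0.38 for miR-148a-3p to 0.27 for miR-122-3p. For the other lists, 0 calls stand beside the 0.595% called over all miRNAs and are no result about a list. The endothelial miR-126a arms summed to 23.5 to 48.4 TPM in NAFLD and 14.7 to 41.1 TPM in normal, with 0 of 2 called. The leukocyte list summed to 26.5 to 39.4 TPM and 20.2 to 42.7 TPM, with 0 of 3 called, and its miR-142-3p was at 0.0842 to 0.337 TPM. The erythroid list summed to 27.0 to 76.3 TPM and 30.8 to 50.4 TPM, with 0 of 3 called, and the biliary list, of which only miR-200c-3p was tested, to 0.765 to 2.03 TPM and 1.77 to 2.95 TPM. The miR-29 family, whose loss is known to favour collagen expression, summed to 1841 to 4995 TPM in NAFLD and 1239 to 4102 TPM in normal, with 0 of 3 called. The part of these cells in the levels of the members was not tested.

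**Figure D4:**
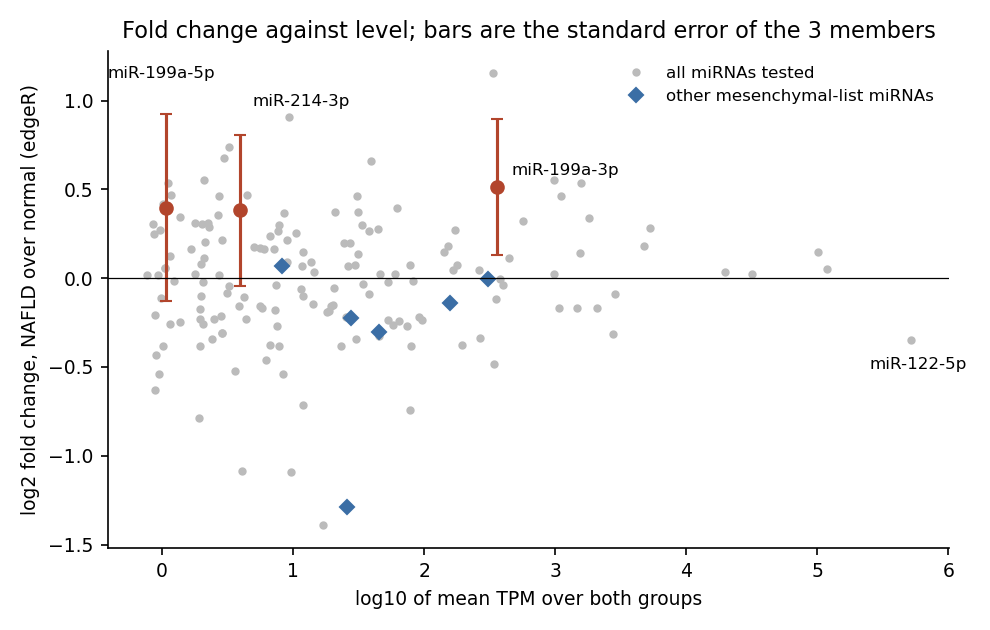
Log2 fold change of NAFLD over normal from edgeR (y axis) against log10 of the mean TPM (x axis) for the 168 miRNAs tested; red points with standard errors are the members and diamonds the other tested miRNAs of the mesenchymal list. The members lie at 0.38 to 0.51, and 5 of the 6 diamonds lie below 0.

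Among miRNAs with a mean of at least 10 TPM, those most like each member were named by Pearson's r of log2(TPM + 1) over the 6 libraries. For miR-199a-3p these were miR-499-5p (r = 0.96), miR-378a-3p (r = 0.93) and miR-181b-5p (r = 0.91). miR-499-5p had 56.6, 41.4 and 46.6 TPM in NAFLD replicates 1, 2 and 3 and 34.6, 19.5 and 37.5 TPM in normal replicates 1, 2 and 3. Its groups did not overlap either, but it was chosen for its likeness to miR-199a-3p in these same libraries. Of the 168 miRNAs tested, 2.98% lay higher in NAFLD without overlap. For miR-214-3p they were miR-503-5p (r = 0.97), the shared start of miR-103-3p and miR-107-3p (r = 0.97) and miR-674-5p (r = 0.96). For miR-199a-5p they were miR-192-5p (r = 0.92), miR-503-5p (r = 0.90) and miR-28-3p (r = 0.90). Likeness over these libraries includes the difference in substitution rate, which they all share. By equal first bases and without a covariate, none of these miRNAs had an adjusted p from edgeR below 0.986. With 1 substitution allowed and the covariate for substitution rate, miR-378a-3p had a log2 fold change of 0.83 (adjusted p from edgeR 0.0193). The other miRNAs named here were not called in that fit.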

How the data were processed

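Small RNA of 18 to 30 nt was sequenced by the authors, who removed low-quality, adaptor-contaminated and poly A reads and those shorter than 18 nt. For every tag they deposited a raw read count, with no filter on genome matches, and the submitters' notes name the builds Rnor_5.0 and rn5. Tag counts summed to the clean reads of the deposited log counts in all 6 libraries. Tags were summed over 681 distinct 18-base starts of 693 mature miRNAs of RefSeq (GRCr8), of which 367 had a read. A mature sequence under 18 nt was extended from its hairpin.

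TPM was the count per 1000000 clean reads, as in the study. edgeR 4.0.16 (quasi-likelihood, filterByExpr, library size equal to clean reads, R 4.3.3) tested 168 miRNAs without pairing, with Benjamini-Hochberg adjustment at 0.05. DESeq2 1.42.0, limma 3.58.1 on log2(TPM + 1), TMM factors, other matching and omission of each library were alternatives. Ratios and shares were compared by two-sided exact permutation tests in Python 3.11.15. At this depth counting error is small for miR-199a-3p and large for the other members, and amplified reads are not independent molecules, so intervals and floors cover only counting error. The labels number the libraries within each group, and p-values measure the spread between them.

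The members, lists and tests were chosen with earlier results of these data known, the division by substitution rate included. Named beside the members were the opposite arm, the 3 miRNAs most like each member and 2 to 4 list miRNAs by level. miR-145-5p, and list miRNAs at or near 0, stand outside that order. From the lists, miR-199b-5p, miR-802-5p, miR-486, miR-150-5p, miR-200a-3p, miR-200b-3p and miR-429 had no entry in the reference table.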

Additional observations from a re-analysis of the deposited data

How the results depend on the processing

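The log2 fold change of each member stayed positive, with an adjusted p above 0.05, in all alternatives with a fit. Within the high-rate libraries alone, with no test, the log2 ratio of means was 0.98, 0.99 and 1.21 for miR-199a-3p, miR-214-3p and miR-199a-5p. In the fits it ranged for miR-199a-3p from 0.32 (without normal replicate 2) to 0.75 (without normal replicate 3), with adjusted p of 0.0813 to 1.00. For miR-214-3p it ranged from 0.10 (without normal replicate 2) to 0.80, and for miR-199a-5p from 0.05 (without normal replicate 2) to 0.79. Without NAFLD replicate 1 the values were 0.17 and 0.07. By the count that leaves out reads with 1 substitution, both differences thus rest largely on 1 library of either group. Without normal replicate 2, high-rate libraries remain in NAFLD only. With 1 substitution allowed, miR-214-3p spanned 5.10 to 6.69 TPM in NAFLD and 2.78 to 4.39 TPM in normal, whereas miR-199a-5p overlapped. Omission of a library was not tested with 1 substitution allowed. The lowest adjusted p came with 1 substitution allowed together with the covariate for substitution rate, a combination added after seeing the data. With the exact mature sequence only, miR-199a-3p overlapped between the groups, and miR-199a-5p and miR-214-3p had too few reads to be tested. Per read assigned to miRNAs, miR-199a-3p stood at 0.71, with the median miRNA at 0.21, and with TMM factors at 0.50.

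The number of miRNAs called, 1 in the fit of the report, was 0 with TMM factors (9 at an unadjusted p under 0.05), 0 per miRNA read (6 at an unadjusted p under 0.05), and 4 with 1 substitution allowed and the covariate (miR-122-5p lower, and miR-132-3p, miR-144-3p and miR-378a-3p higher, chosen for naming after their values were seen). DESeq2 also called 1, but this was miR-1b, and not miR-122-5p. The count was 1 to 2 when a library was left out, the second being miR-184 without NAFLD replicate 1. At an unadjusted p under 0.05 it was 3 in the fit of the report and 28 in the fit with both changes.

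In the fit that blocked on replicate number, the log2 fold changes were 0.56, 0.43 and 0.41 for miR-199a-3p, miR-199a-5p and miR-214-3p, and no call of a member changed. Same-numbered libraries correlated at 0.15, 0.35 and -0.54 in their deviations from the group means, and differently numbered ones at -0.52 to 0.45. With so few libraries, these values do not settle whether the numbers pair them. At an unadjusted p under 0.05 the block gave 9 miRNAs.

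Small differences changed sign. The arm ratio difference was -0.20 within the sets of substitution rate and -0.19 to 0.32 with a library left out. The difference in the ratio of miR-214-3p to miR-199a-5p was 0.28 with 1 substitution allowed and -0.32 to 0.11 with a library left out. With a library left out, the difference in mature share was -2.89 to 0.155 points for miR-199a-3p, -7.16 to 5.34 for miR-199a-5p (1.03 within the sets) and -3.01 to 0.0175 for miR-214-3p. The difference in shifted starts was 0.0141 points within the sets for miR-199a-3p and -1.19 to 5.16 with a library left out for miR-214-3p. The cause was not tested.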
